A study of Mus musculus with 3 samples.

Results

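Tumours of mice whose lung tumours lacked p53 were compared with those of mice that kept it, both with Cas9, for every guide of one lentiviral pool. All mice listed under the genotypes KPTC (4 mice) and KTC (9 mice) were taken, which is 13 of the 17 mice in the series, and the mouse was the replicate. The labels write the genotypes as KPT;Cas9 and KT;Cas9. By the usage of this field, T is a Cre-dependent fluorescent reporter, P a p53 gene deleted by Cre and Cas9 the nuclease that the guides direct, so both groups share the alleles K and T and Cas9 and differ in p53. The 4 remaining mice, KT, carry no Cas9 and served as a baseline without cutting, for the share of virus of every guide and for the reference values given with some results. The same pool was given into the trachea in all genotypes, and lungs were taken about 15 weeks later. The pool held 13 guides. Ambra1 was targeted by 3 of them, Rb1 and Rbm10 by 2 each and Apc by 1, which makes 8 targeting guides. The other 5 were inert: NT1 and NT2 are non-targeting, while Neo1, Neo2 and Neo3 target the neomycin resistance gene. All 4 KPTC mice were male, while the KTC group held 5 female and 4 male mice. In this model p53 is lost through the same Cre that starts the tumour. Each tumour is identified within a mouse by its guide and barcode alone, and DNA came from the whole tumour-bearing lung.

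p53 is the transcription factor that halts the cell cycle or triggers cell death in response to DNA damage and oncogene activity, and it is among the genes most often lost in lung adenocarcinoma. Rb1 encodes the retinoblastoma protein, which holds back E2F transcription factors and thereby entry into DNA replication. D-type cyclins with their kinases release that brake by phosphorylating it, and AMBRA1 is the adaptor through which a ubiquitin ligase marks D-type cyclins for destruction, so Ambra1 and Rb1 act along one pathway. Apc encodes the scaffold of the complex that destroys beta-catenin, and Rbm10 encodes an RNA-binding protein that regulates splicing. Tumour barcoding with sequencing (Tuba-seq) gives every transduced cell a guide and a random barcode, so that the reads of a barcode count the cells of 1 tumour. Cells added in known number to each lung turn reads into neoplastic cell numbers.

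A tumour in these data is identified within a mouse by its guide and its barcode, a run of 30 bases in which 20 were drawn at random. The barcodes of the largest tumour in KPTC mice 1, 3 and 4 and of the largest tumour in any KTC mouse are shown, and their sizes follow. Those of KPTC mice 1 and 4 and of KTC mouse 2 were also listed with the same guide in other mice, at no more than 110 cells. Capitals mark the drawn bases and lower case the fixed ones.
KPTC mouse 1, guide Rb1#1: gcGTTTGtaCTTGTgcCATATtaTTTTAgc
KPTC mouse 3, guide Ambra1#3: gcTGACTtaTACATgcTTTTGtaTCACGgc
KPTC mouse 4, guide Ambra1#1: gcACCTGtaGCTTTgcGCTGTtaCTTCGgc
KTC mouse 2, guide Ambra1#2: gcGTTTCtaTTTATgcAGGATtaTTTTAgc
In KPTC, the largest tumours held 2919140, 20568200, 860192 and 2293270 cells in mice 1 to 4, against 197929 cells in KTC mouse 2. The Rb1 tumour of KPTC mouse 2 alone made up 43.9% of the cells in that mouse's tumours and was 13.6 times the second largest. In every KPTC mouse the largest tumour carried a guide against Rb1 or Ambra1. In the KTC mice the largest tumour carried Ambra1 in 3 mice, Rbm10 in 3, an inert guide in 2 and Apc in 1, and none carried Rb1.

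In all, 27353 tumours of at least 500 cells were analysed, 12043 in KPTC and 15310 in KTC, from 117 to 5668 per mouse. Reads per mouse ran from 338871 to 3898398. A read was worth 1.89 to 8.88 cells in KTC and 3.71 to 132 cells in KPTC, so the 500-cell minimum corresponds to 3.80 reads for KPTC mouse 1 and to at least 18.4 for each of the other mice. The number of inert tumours was 29 in KTC mouse 6 and 105 in KTC mouse 7 and at least 323 elsewhere. Each difference below is KPTC minus KTC, tested by a two-sided exact permutation of mouse labels over all 715 assignments, where the smallest p is 0.0014, with Benjamini-Hochberg adjustment. The labels do not say whether the mice were littermates or were infected together, and genotype cannot be told apart from such a batch.

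Without any targeted gene, p53-deleted tumours reached larger sizes at the upper percentiles. Median inert tumour size was 919 cells in KPTC and 835 cells in KTC (geometric means over mice), and on the log2 scale it was 9.84 ± 0.06 (SD, n = 4 mice) against 9.71 ± 0.23 (SD, n = 9 mice). This difference of 0.14 did not pass the test (exact permutation, adjusted p = 0.35), and the mice of both genotypes overlapped. The 95th percentile was 9350, 13851, 17179 and 8016 cells in KPTC mice 1 to 4. In KTC it had a lowest value of 905, a median of 5140 and a highest of 6800 cells, so every KPTC mouse lay above every KTC mouse. The means were 11556 and 3922 cells, a difference of 1.56 on the log2 scale (exact permutation, adjusted p = 0.019). KPTC inert tumours had 99th percentiles of 30252, 31415, 58780 and 39294 cells. Those of KTC ran from 1317 to 21279 cells, again without overlap, and the difference was 1.94 on the log2 scale, or 3.83-fold (exact permutation, adjusted p = 0.019).

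The spread of inert sizes, given as the SD of log2 size, was 1.47 ± 0.13 (SD, n = 4) in KPTC and 0.98 ± 0.27 (SD, n = 9) in KTC, a difference of 0.48 (exact permutation, adjusted p = 0.019). Inert size summarised as the mean of a log-normal distribution, the summary used for all genes below, was 2193 cells in KPTC and 1306 cells in KTC, 1.68-fold (exact permutation, adjusted p = 0.019). Neither measure overlapped between genotypes. Inert tumours of the 4 KT mice, which also keep p53, had a 99th percentile of 13.70 ± 0.46 (log2 cells, SD, n = 4) and a spread of 1.11 ± 0.10. Among inert tumours, 11.6% ± 3.6 (SD, n = 4) held at least 5000 cells in KPTC and 4.64% ± 2.6 (SD, n = 9) in KTC. At 20000 cells the shares were 2.95% ± 0.86 and 0.38% ± 0.46, with no overlap between the groups. Not every measure of the tail separated the genotypes. The skewness of log2 size was 1.72 ± 0.26 and 1.69 ± 0.69 (exact permutation, adjusted p = 0.98), and the largest 1% of inert tumours held 25.1% ± 7.7 and 14.9% ± 9.4 of inert cells, with overlap (SD, n = 4 and 9; exact permutation, adjusted p = 0.10, and 0.012 without KTC mouse 8, at a difference of 13.2 points). At the main minimum of 500 cells the genotypes thus separated at the upper percentiles of inert tumours, while their medians overlapped. Both medians lay close to that minimum, which limits how far apart they can lie. The pattern depended on the minimum. At 2000 cells the median differed by 0.61 past the test, while the 95th and 99th percentiles and the SD did not pass. At 5000 cells these upper measures did not pass either, and at 200 cells the 95th and the SD did not. Leaving out KPTC mouse 3 kept the directions but ended the calls made at the main minimum. The differences were then 1.37 at the 95th percentile, 1.74 at the 99th, 0.43 in the SD and 0.64 in the mean (exact permutation, adjusted p = 0.076 for each). Leaving out KPTC mouse 4 ended the call of the 99th (0.053).

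**Figure D1:**
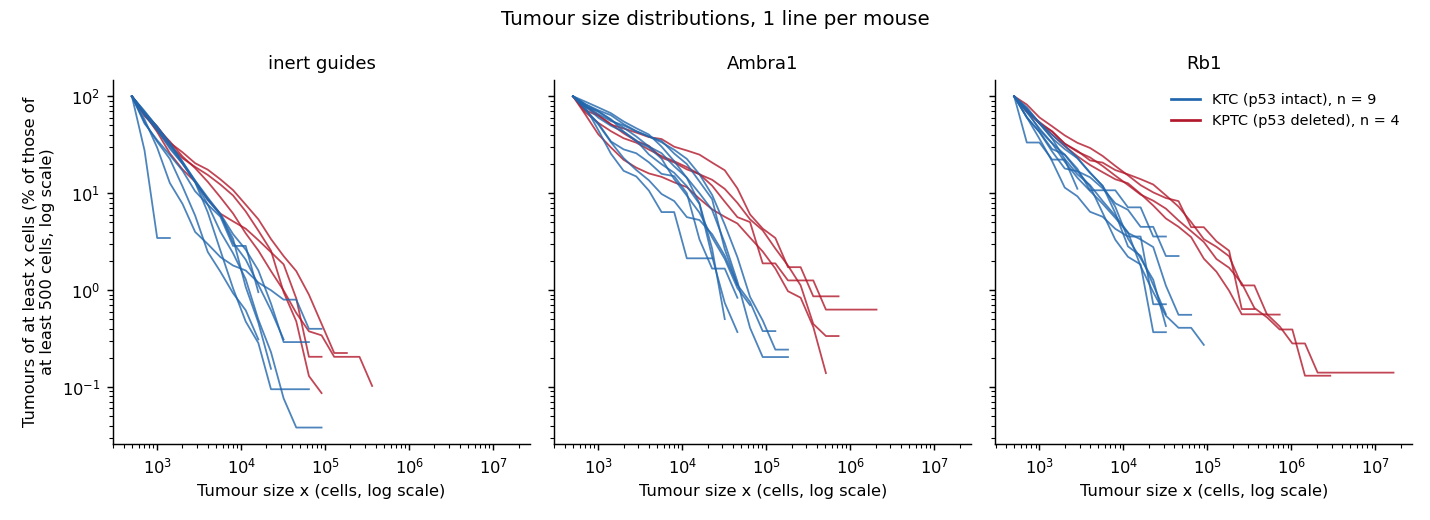
Share of tumours with at least x cells (percent of those with at least 500 cells, log scale) against x (cells, log scale) for inert guides, Ambra1 and Rb1, with 1 line per mouse (9 KTC mice in blue, 4 KPTC mice in red). The lines start together by definition. For Ambra1 and Rb1 all those of KPTC reach larger sizes, up to the Rb1 tumour of 20568200 cells. For inert guides KPTC mouse 4 ends at 91873 cells, below KTC mice 2 and 8 at 107373 and 110040 cells.

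Of the 4 genes, Rb1 was the one whose relative size at this minimum differed between genotypes past the test. Relative size is the log2 ratio of a gene's log-normal mean tumour size to that of inert tumours in the same mouse. For Rb1 it was 1.46, 1.11, 1.43 and 1.99 in KPTC mice 1 to 4. In KTC it ran from 0.26 to 0.97 with a median of 0.40, and every KPTC mouse lay above every KTC mouse. The means were 1.50 ± 0.36 (SD, n = 4) and 0.52 ± 0.25 (SD, n = 9), so that Rb1 tumours were 2.80-fold the size of inert ones, relative to KT mice, with p53 deleted and 1.42-fold with p53 intact. The difference of 0.98 passed the test (exact permutation, adjusted p = 0.0056). Among male mice only, 4 against 4, it was 0.94 without overlap (exact permutation, adjusted p = 0.11, where no single p can be below 0.029). With KPTC mice 1 and 2 alone it was 0.77 and with mice 3 and 4 alone 1.19 (exact permutation, adjusted p = 0.073 for each).

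Size above a fixed minimum misses an enlargement that lifts small tumours over that minimum. Number-matched size therefore compares as many of a gene's largest barcodes as the inert number and the gene's share of virus in KT mice predict. On this measure Rb1 stood at 2.08, 2.07, 2.64 and 3.45 in KPTC mice 1 to 4, and between 0.58 and 1.49 in KTC. The means were 2.56 ± 0.65 (SD, n = 4) and 0.92 ± 0.29 (SD, n = 9), again without overlap, and the difference was 1.64, or 3.12-fold (exact permutation, adjusted p = 0.0056). Rb1 tumours of at least 500 cells were also more numerous relative to inert ones in KPTC than in KTC, by 0.23 on the log2 scale (exact permutation, adjusted p = 0.028), with overlapping mice. That difference in number was -0.02 at a minimum of 1000 cells, and without KPTC mouse 2, 3 or 4 or KTC mouse 1 its adjusted p was between 0.053 and 0.097.

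Ambra1 tumours were enlarged in both genotypes. Their relative size was 2.12, 0.76, 2.64 and 2.23 in KPTC mice 1 to 4. In KTC it had a lowest value of 1.04, a median of 1.69 and a highest of 2.28. KPTC mouse 2 lay below every KTC mouse and KPTC mouse 3 above every one. The means were 1.94 ± 0.82 (SD, n = 4) and 1.62 ± 0.43 (SD, n = 9), and the difference of 0.32 did not pass the test (exact permutation, adjusted p = 0.48). Without KPTC mouse 2 it was 0.71 (exact permutation, adjusted p = 0.045). The minimum size mattered here, since the difference was -0.25 at 200 cells and, past the test, 0.77, 0.86 and 1.09 at 1000, 2000 and 5000 cells (exact permutation, adjusted p = 0.020, 0.016 and 0.0081). Number-matched size turned the direction, with 2.01 ± 0.73 (SD, n = 4) in KPTC and 2.63 ± 0.53 (SD, n = 9) in KTC, a difference of -0.62 that did not pass either (exact permutation, adjusted p = 0.16).

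The number of Ambra1 tumours did change. Relative to inert tumours and to the guides' share of virus in KT mice, Ambra1 tumours of at least 500 cells were 2.13-fold as many in KTC and 1.04-fold in KPTC. The log2 values over KT were 0.08, 0.11, -0.15 and 0.18 in the KPTC mice and ran up to 2.49 in KTC mouse 6. The difference between genotypes was -1.04 (exact permutation, adjusted p = 0.028), and 8 of 9 KTC mice lay above every KPTC mouse. Leaving out any 1 KPTC mouse, or KTC mouse 1, brought its adjusted p to between 0.054 and 0.097, with the difference between -0.97 and -1.08.

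Apc and Rbm10 tumours were larger than inert ones by amounts that the test did not separate between genotypes. The relative size of Apc was 0.96, 0.39, 1.23 and 1.05 in the KPTC mice and between 0.44 and 1.37 in KTC, with means of 0.91 ± 0.36 (SD, n = 4) and 0.86 ± 0.32 (SD, n = 9). The difference of 0.04 had an adjusted p of 0.83 (exact permutation). Rbm10 stood at 0.46, 0.56, 0.87 and 0.71 in the KPTC mice and between -0.09 and 1.05 in KTC, with means of 0.65 ± 0.18 (SD, n = 4) and 0.44 ± 0.36 (SD, n = 9). Its difference of 0.22 had an adjusted p of 0.48 (exact permutation). Number-matched, the differences were -0.23 for Apc and -0.70 for Rbm10, with adjusted p of 0.59 and 0.14 (exact permutation).

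Rbm10 tumours, like those of Ambra1, were fewer in KPTC. Relative to inert tumours their number differed by -0.94 on the log2 scale, or 1.92-fold (exact permutation, adjusted p = 0.028), and all 4 KPTC mice lay below all 9 KTC mice. Without KPTC mouse 3 the difference was -0.86 (exact permutation, adjusted p = 0.073). Over KT mice the KTC number was 1.58-fold and the KPTC number 0.82-fold. For Apc the difference in number was -0.32 and did not pass the test (exact permutation, adjusted p = 0.098), except without KTC mouse 2, where it was -0.40 (0.019), and at a minimum of 2000 cells, where it was -0.655 (0.040). In the KT mice, where no gene is cut, relative sizes averaged -0.11 for Ambra1, 0.01 for Rb1, 0.13 for Apc and -0.03 for Rbm10.

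**Figure D2:**
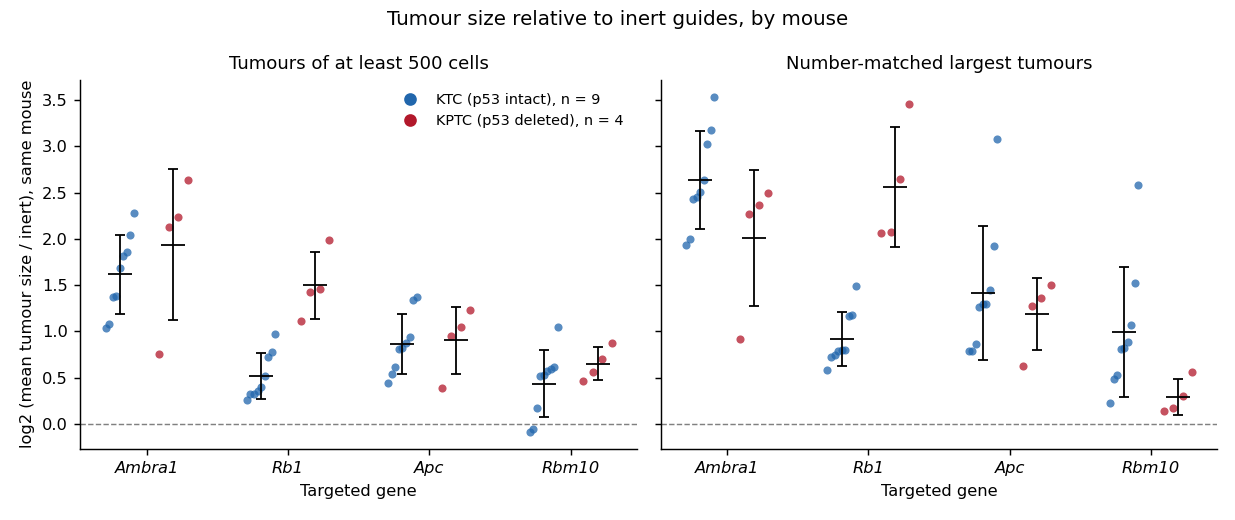
Log2 of mean tumour size over inert tumours in the same mouse (vertical axis) for each targeted gene (horizontal axis), over tumours of at least 500 cells and over number-matched largest tumours. Points are mice (9 KTC in blue, 4 KPTC in red) and bars the mean ± SD. The Rb1 points of KPTC lie above all those of KTC, while the points of the other genes overlap.

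The order of the genes was read within each mouse, where inert tumours cancel out. By size above 500 cells, KTC mice ranked Ambra1 first in 8 of 9 mice and Apc at rank 2 in 7, and Rb1 held rank 3 or 4 in 8. In KPTC, Ambra1 was first in 3 of 4 mice with Rb1 at rank 2, and Rb1 was first in KPTC mouse 2. Apc held rank 3 in 3 KPTC mice and Rbm10 rank 4 in 3. Rb1 thus stood next to Rbm10 in KTC and next to Ambra1 in KPTC.

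The pairs show the same shift. Rb1 over Apc was 0.51, 0.72, 0.19 and 0.94 on the log2 scale in KPTC mice 1 to 4 and below 0 in 8 of 9 KTC mice, with means of 0.59 ± 0.32 (SD, n = 4) and -0.34 ± 0.31 (SD, n = 9). The difference of 0.94 passed the test over the 6 gene pairs (exact permutation, adjusted p = 0.017), though KTC mouse 1, at 0.36, lay among the KPTC mice. Rb1 over Rbm10 was 0.85 ± 0.36 (SD, n = 4) against 0.08 ± 0.38 (SD, n = 9), a difference of 0.76 (exact permutation, adjusted p = 0.025). Both calls were lost without KPTC mouse 1 or 4 (exact permutation, adjusted p from 0.055 to 0.12), and that of Rb1 over Rbm10 also without KTC mouse 5.

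Ambra1 over Rb1 was above 0 in all 9 KTC mice, at a mean of 1.10 ± 0.53 (SD; exact sign-flip test, p = 0.0039). In KPTC it was above 0 in 3 of 4 mice, at 0.44 ± 0.66 (SD), where 4 mice cannot give a p below 0.125. By size above 500 cells the difference of -0.66 did not pass the test (exact permutation, adjusted p = 0.16). It passed at a minimum of 200 cells, where it was -1.12 (exact permutation, adjusted p = 0.0028). None of the 3 pairs without Rb1 passed at 500 cells, and at 5000 cells Ambra1 over Rbm10 did (0.98, exact permutation, adjusted p = 0.048).

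By number-matched size and by burden, Rb1 stood on average above Ambra1 with p53 deleted and below it with p53 intact. Within KPTC alone, neither measure separated Ambra1 from Rb1 (exact sign-flip test, p = 0.25 for each, where 4 mice cannot give a p below 0.125). Number-matched, Ambra1 over Rb1 was 0.19, -1.15, -0.28 and -0.96 in KPTC mice 1 to 4, and between 1.21 and 2.37 in the KTC mice. The means were -0.55 ± 0.62 (SD, n = 4) and 1.71 ± 0.37 (SD, n = 9), and the difference of -2.26 is a 4.80-fold shift of the pair (exact permutation, adjusted p = 0.0028). Rb1 ranked first in 3 of 4 KPTC mice and in none of the 9 KTC mice, of which 8 ranked Ambra1 first. Rb1 over Apc differed by 1.87 and Rb1 over Rbm10 by 2.34 (exact permutation, adjusted p = 0.0028 for each). No KPTC mouse overlapped a KTC mouse in any of these 3 pairs. The 3 pairs without Rb1 did not pass with all mice at 500 cells, but 2 of them did under other settings. Apc over Rbm10 differed by 0.70 without KTC mouse 7, by 0.58 without the 2 mice of under 200 inert tumours and by 0.50 when tumours of 200 cells or more were kept (exact permutation, adjusted p = 0.021, 0.0091 and 0.033). Ambra1 over Apc differed by -0.84 at 200 cells and by -1.11 without barcodes shared between mice (exact permutation, adjusted p = 0.027 and 0.042).

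Burden is the sum of cells over all tumours of a gene, relative to inert and set against KT mice for virus share. Ambra1 over Rb1 in burden was -0.28, -2.50, -0.11 and 0.02 in KPTC mice 1 to 4. In KTC it ran from 0.97 to 2.78, above every KPTC mouse. The means were -0.72 ± 1.19 (SD, n = 4) and 1.70 ± 0.52 (SD, n = 9), with a difference of -2.41 (exact permutation, adjusted p = 0.0028). Rb1 over Apc differed by 2.34 and Rb1 over Rbm10 by 2.65, both with the same adjusted p (exact permutation, 0.0028) and without overlap. With each gene's largest tumour in each mouse removed, including the 20568200-cell one, the 3 differences were -2.33, 1.90 and 2.57 (exact permutation, adjusted p = 0.0028 for each).

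As a share of all cells in tumours of at least 500 cells, Rb1 held 29.8%, 61.3%, 27.9% and 28.5% in KPTC mice 1 to 4 and 5.34% to 12.2% in KTC. Ambra1 held 33.4%, 14.7%, 35.0% and 39.2% in KPTC and 31.4% to 49.9% in KTC. Rb1's share did not overlap between genotypes and was higher in KPTC by 27.0 percentage points (exact permutation, adjusted p = 0.007). Ambra1's shares overlapped and were lower in KPTC by 12.4 points, 30.6% ± 10.8 (SD, n = 4) against 42.9% ± 6.3 (SD, n = 9; exact permutation, adjusted p = 0.042). Shares within a mouse sum to 100%, so one gene's share moves with the others'. The Ambra1 call was lost without any 1 of 10 mice, and without KPTC mouse 2 the difference was -7.10 points (exact permutation, adjusted p = 0.24).

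**Figure D3:**
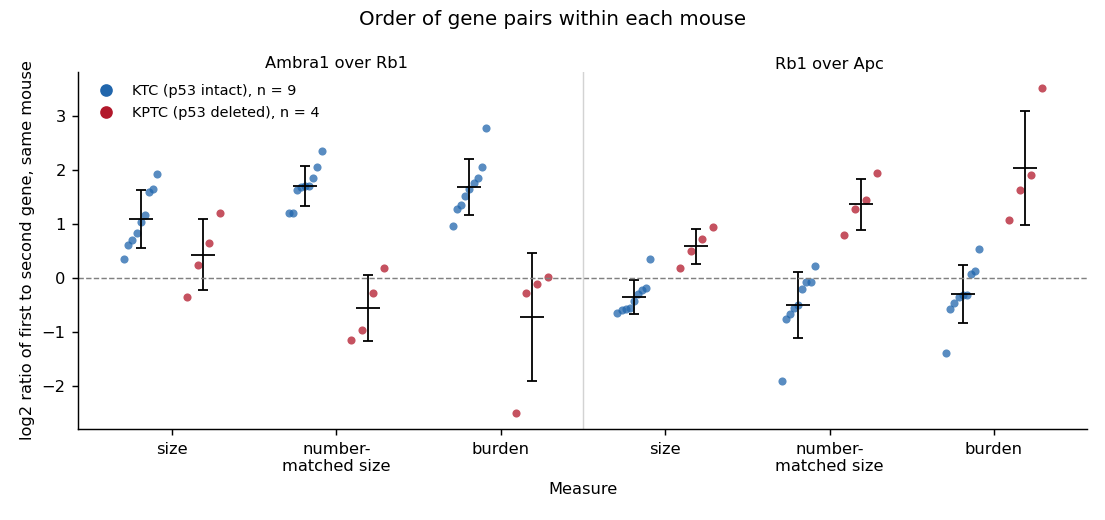
Log2 ratio of Ambra1 to Rb1 and of Rb1 to Apc in the same mouse (vertical axis) by size, number-matched size and burden (horizontal axis). Points are mice (9 KTC in blue, 4 KPTC in red), bars the mean ± SD, and the dashed line marks equal values. By number-matched size and burden the KPTC points lie apart from the KTC points for both pairs.

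Where along the size distribution the genotypes differ was read from percentiles of each gene over the same percentile of inert tumours. For Rb1 the log2 ratio at the median was 0.30 ± 0.11 (SD, n = 4) in KPTC and 0.11 ± 0.15 (SD, n = 9) in KTC. At the 70th percentile it was 0.73 ± 0.31 and 0.24 ± 0.17, and at the 99th 2.56 ± 0.56 and 1.02 ± 0.91. The difference therefore grew from 0.18 at the median through 0.49 to 1.53. Adjusted over all 32 gene and percentile tests, the 60th and 70th percentiles passed (exact permutation, adjusted p = 0.045 for each). The 95th, with a difference of 0.97, and the 99th did not (exact permutation, adjusted p = 0.13 and 0.11), and without KTC mouse 1 the 99th did (1.76, exact permutation, adjusted p = 0.043). Both calls sit at the threshold, and leaving out any of 11 single mice gave adjusted p between 0.065 and 0.15.

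No Ambra1 percentile passed the test with all mice. Its median ratio was 0.43 ± 0.42 (SD, n = 4) in KPTC and 0.88 ± 0.33 (SD, n = 9) in KTC, a difference of -0.45 (exact permutation, adjusted p = 0.18). Further up, at the 95th percentile, the genotypes stood at 2.27 ± 0.61 and 2.24 ± 0.56, a difference of 0.03 (exact permutation, adjusted p = 0.98). The 99th percentile ratios were 2.57 ± 0.42 and 1.84 ± 0.84, a difference of 0.73 (exact permutation, adjusted p = 0.38), and without KTC mouse 6 it was 0.98 (exact permutation, adjusted p = 0.039). Among KPTC mice the 80th and 99th percentile ratios were 2.00 and 3.12 in mouse 1, -0.11 and 2.39 in mouse 2, 3.05 and 2.13 in mouse 3 and 2.25 and 2.64 in mouse 4, so the mice did not share one profile. Apc and Rbm10 had no percentile past the test.

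**Figure D4:**
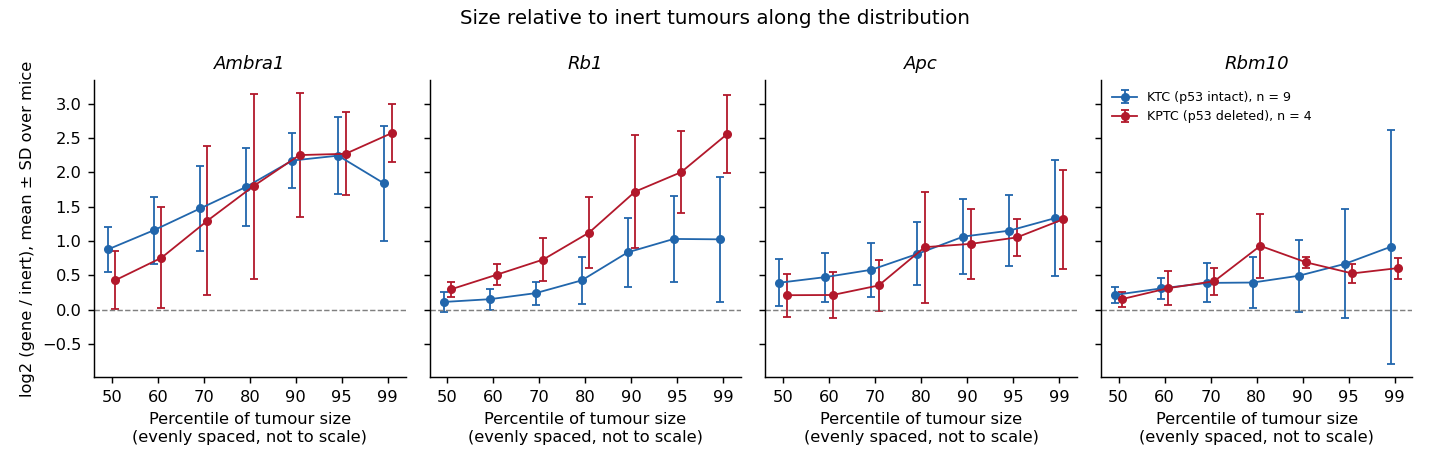
Log2 ratio of each gene to inert tumours (vertical axis) at 7 percentiles of tumour size from the 50th to the 99th (horizontal axis, evenly spaced), as mean ± SD over 9 KTC mice (blue) and 4 KPTC mice (red). For Rb1 the curves part toward the largest tumours, up to 2.56 against 1.02 at the 99th percentile.

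Guide shares differed between genotypes among all tumours of at least 500 cells, and also among the large ones. As means over mice, Ambra1 carried 15.3% of tumours of at least 500 cells in KPTC and 25.2% in KTC. Rb1 carried 16.3% and 10.8%, Rbm10 12.8% and 19.1%, inert guides 50.9% and 40.2%, and Apc 4.74% and 4.62%. All but Apc passed at 500 cells (exact permutation, adjusted p from 0.0070 to 0.031, and 0.75 for Apc). Of tumours with at least 5000 cells, Ambra1 carried 26.3%, 16.1%, 23.5% and 28.6% in KPTC mice 1 to 4. In KTC it carried a lowest share of 41.5%, a median of 53.7% and a highest of 80% (4 of 5 tumours in KTC mouse 6). The difference was -31.7 percentage points (exact permutation, adjusted p = 0.0035) and the groups did not overlap. Rb1 carried 17.7%, 18.3%, 20.3% and 26.4% in KPTC and 0% to 14.8% in KTC, a difference of 11.6 points (exact permutation, adjusted p = 0.0035), also without overlap. In KTC mouse 6, the 0% for Rb1 rests on 5 tumours of that size in all.

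Inert guides carried 35.7% ± 8.6 (SD, n = 4) of these tumours in KPTC and 17.4% ± 8.6 (SD, n = 9) in KTC, 18.3 points more (exact permutation, adjusted p = 0.007), and 3 of 4 KPTC mice lay above every KTC mouse. Rbm10 carried 14.7% ± 1.1 and 13.3% ± 5.0, and Apc 5.34% ± 1.0 and 4.82% ± 2.4, neither past the test (exact permutation, adjusted p = 0.70 for each). These shares sum to 100% in a mouse, so a lower share of one gene need not mean that fewer of its own tumours were large. At 20000 cells, Ambra1 carried 33.4% ± 8.3 of tumours in KPTC and 60.0% ± 16.4 in KTC, and Rb1 26.6% ± 5.3 and 10.9% ± 8.7 (SD, n = 4 and 9), given as a description.

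Each gene's own tumours were therefore also counted, as the percent of its tumours of at least 500 cells that held at least 5000. For Ambra1 this was 26.0% ± 9.3 (SD, n = 4) in KPTC and 24.2% ± 10.4 (SD, n = 9) in KTC, which the test did not separate (exact permutation, adjusted p = 0.76). Rb1 stood at 20.6% ± 2.8 and 8.88% ± 4.1 and Rbm10 at 19.3% ± 5.8 and 7.82% ± 4.6, both without overlap (exact permutation, adjusted p = 0.0035 for each). Inert tumours, at 11.6% and 4.64% as given above, also passed, with overlap (exact permutation, adjusted p = 0.0047). Apc, at 18.7% ± 5.6 and 11.5% ± 6.4, did not (exact permutation, adjusted p = 0.10), but did at a minimum of 10 reads and without shared barcodes (0.028 and 0.021). The 10-read minimum takes out only small tumours of KPTC mouse 1, where 500 cells are 3.80 reads. It therefore raises that mouse's percent by itself, and its call adds no support. At 5000 cells the percent of large tumours was thus higher in KPTC past the test for Rb1, Rbm10 and inert guides. At 20000 cells the KPTC and KTC means were 14.0% and 5.43% for Ambra1 and 10.01% and 1.83% for Rb1. They were 7.56% and 2.51% for Apc and 4.91% and 1.27% for Rbm10. The genotypes did not overlap for Rb1 and overlapped for the other genes. All 4 genes and inert guides passed at 20000 cells (exact permutation, adjusted p = 0.0070 for Ambra1 and 0.0035 for each of the others).

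**Figure D5:**
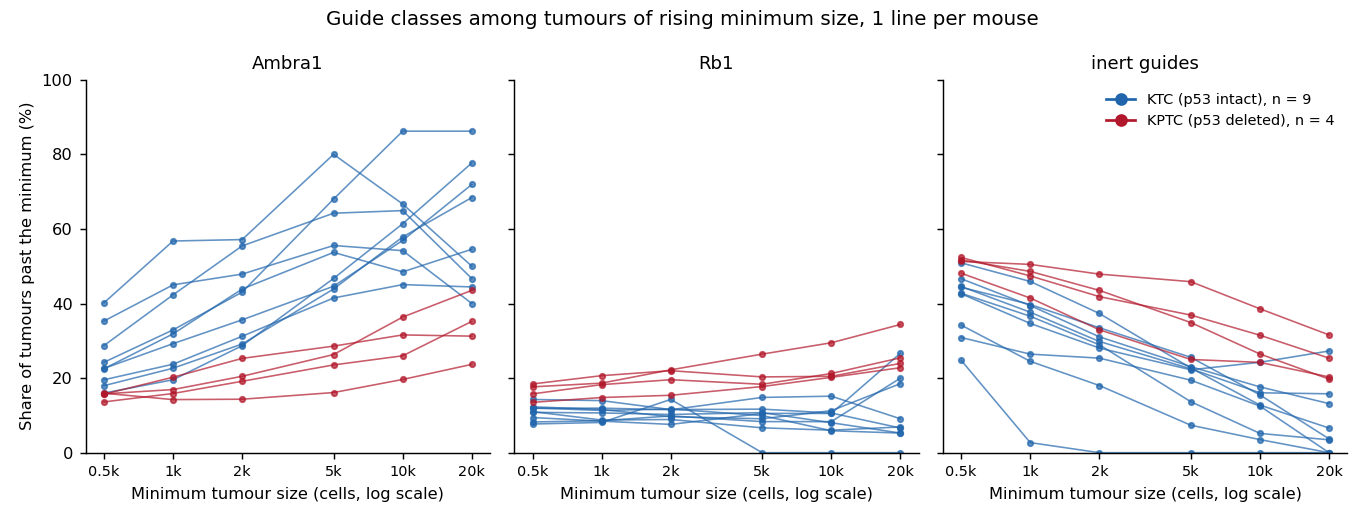
Share of tumours (percent, vertical axis) that carry guides against Ambra1, against Rb1 or inert guides among tumours of at least 500, 1000, 2000, 5000, 10000 and 20000 cells (horizontal axis, log scale), with 1 line per mouse (9 KTC in blue, 4 KPTC in red). At 5000 cells the Ambra1 lines of KPTC lie below, and the Rb1 lines above, all those of KTC.

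Very large tumours were found mostly in KPTC. Tumours of at least 100000 cells numbered 73, 34, 13 and 11 in KPTC mice 1 to 4, or 131 in all, and 13 in all 9 KTC mice, of which 9 were in KTC mouse 2. They held 54.3% ± 10.2 (SD, n = 4) of the cells in KPTC and 2.44% ± 2.7 (SD, n = 9) in KTC, without overlap. In KPTC, 57 of them carried Ambra1, 46 Rb1, 9 Apc, 5 Rbm10 and 14 an inert guide. As a share of each gene's tumours of at least 500 cells, this was 3.03% ± 1.2 for Ambra1, 2.94% ± 0.86 for Rb1 and 0.22% ± 0.21 for inert guides (SD, n = 4 mice). For Apc it was 1.28% ± 1.0 and for Rbm10, close to inert guides, 0.32% ± 0.31. Of the 20 largest tumours in KPTC, 9 carried Rb1, 6 Ambra1, 3 Rbm10 and 2 Apc, and no inert tumour was among them. The 20 largest in KTC held 8 Ambra1, 3 Rb1, 3 Apc, 2 Rbm10 and 4 inert tumours. These counts pool mice and are given as a description. All 7 tumours of at least 1000000 cells were in KPTC.

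The tail can also be described by a power-law exponent fitted to tumours of at least 5000 cells in mice with at least 10 of them, where a lower value is a heavier tail. For Rb1 the exponent was 0.55 to 0.67 in the 4 KPTC mice and 0.90 to 1.62 in 6 KTC mice. For Ambra1 it was 0.59 to 0.64 in the 4 KPTC mice and 0.90 to 1.36 in 8 KTC mice. For Apc it was 0.66 to 0.79 in 3 KPTC mice and 0.95 to 2.08 in 5 KTC mice, so for these 3 genes the mice that could be fitted did not overlap. Rbm10 ranged from 0.90 to 1.21 in KPTC and from 0.84 to 3.36 in 6 KTC mice, with overlap. For inert guides the ranges were 0.87 to 1.22 in KPTC and 0.71 to 2.62 in 6 KTC mice, which overlap. That overlap came from KTC mouse 8 alone, whose 0.71 was fitted to 12 tumours, and the next lowest KTC value was 1.47.

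Single guides were compared in the same way. Rb1#1 stood at 1.61, 0.79, 2.18 and 2.01 in KPTC mice 1 to 4 and between 0.21 and 1.36 in KTC, a difference of 1.13 (exact permutation, adjusted p = 0.034 over the 8 targeting guides). Rb1#2 stood at 1.24, 1.62, -0.06 and 1.95 in KPTC and between -0.16 and 1.04 in KTC, a difference of 0.75 that did not pass (exact permutation, adjusted p = 0.15). Both guides were thus higher in KPTC on average. The low value of Rb1#2 in KPTC mouse 3 came from 60 tumours, and its highest, in KPTC mouse 4, from 57. The lowest KTC value, in KTC mouse 6, came from 1 tumour. Without KPTC mouse 3, Rb1#2 differed by 1.17 (exact permutation, adjusted p = 0.036). The call of Rb1#1 was lost without KPTC mouse 1, 3 or 4 (exact permutation, adjusted p from 0.055 to 0.11, difference 0.95 to 1.14).

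The 3 Ambra1 guides differed between genotypes by 0.58 (Ambra1#1), 0.05 (Ambra1#2) and 0.17 (Ambra1#3), and none passed (exact permutation, adjusted p from 0.44 to 0.89). Their order was the same in both genotypes, with Ambra1#1 highest at 2.44 ± 0.91 (SD, n = 4) in KPTC and 1.87 ± 0.51 (SD, n = 9) in KTC. Rbm10#1 and Rbm10#2 differed by 0.32 and -0.07, with adjusted p of 0.44 and 0.89 (exact permutation). The 5 inert guides, each set against the other 4, differed by -0.13 to 0.12, with a smallest adjusted p of 0.46 (exact permutation), which is the background of these differences in group means. In single mice the inert guides ranged more widely, from -0.70 to 0.63 in KPTC and from -1.05 to 0.88 in KTC.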

How the data were processed

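Values were neoplastic cell numbers per guide, barcode and mouse, an other unit than counts, which the authors computed from barcode reads with 3 added cell lines of 500000 cells each, per the labels' protocols. The read processing is not given in the sources used here. Values (100% of them, to within 0.1) were whole multiples of the smallest value of that mouse divided by 2, which was taken as 1 read, and barcodes of 1 read are not listed. Reads are PCR copies without molecular identifiers, so they bound counting error only. Mouse numbers follow the order of identifiers. Tumours of at least 500 cells were kept, and size, number and burden were taken as log2 of gene over inert guides within a mouse. The rule for named genes took all 4 genes and 13 guides, and all 4 symbols were found in the RefSeq table. The members, lists and tests were chosen with earlier results of these data known. Alternatives included 4 other minimum sizes (200, 1000, 2000 and 5000 cells), at least 10 reads, other size summaries and mice left out. The permutation test was tried on inert tumours of these mice, drawn at random to stand in for a gene. Their sizes were left as they were or raised 4-fold in KPTC. The barcode of 1 tumour is not reported here. No model across genes was used, since barcodes label tumours and only 4 genes were targeted. Python 3.11.15, numpy 2.4.6, pandas 2.3.3 and scipy 1.17.1 were used.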

Additional observations from a re-analysis of the deposited data

Results flagged for a closer look

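KPTC mouse 2 stood apart from the other 3 KPTC mice in the number-matched size of Ambra1, at 0.92 where the next mouse was at 2.27. It is also the mouse whose Rb1 tumour of 20568200 cells held 43.9% of all its cells, and whether one bears on the other was not tested. KTC mouse 7 stood apart in the number-matched size of Apc, at 3.08 with the next at 1.92, on 18 Apc tumours of at least 500 cells. KTC mouse 6, with 29 inert tumours, was lowest in 4 measures of the inert distribution (log2 cells): log-normal mean size 9.38 (next 10.13), 95th percentile 9.82 (next 11.28), 99th percentile 10.36 (next 12.76) and SD of log2 size 0.33 (next 0.88). Of 42 groups examined, 6 held such a distant mouse. Chance gives about 1 in 20 for a single group. The groups share mice, and 4 of the 6 are KTC mouse 6 in related measures, so this rate cannot be set against the count.

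The effect of a gene relative to inert guides differed between genotypes, by the exact permutation test, in 6 results. These were Rb1 in size (0.98), number-matched size (1.64), number (0.23) and burden (2.19), and Ambra1 (-1.04) and Rbm10 (-0.94) in number.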

How the results depend on the processing

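Adjusted p-values here are from exact permutation tests, and differences are KPTC minus KTC (log2 unless in percent). The results set against other settings numbered 58, of which 27 passed the threshold. Of those 27, only 1 kept its call and direction under every setting tried on it. Not every result was run under every setting. Leaving out barcodes within 1 mismatch of one 50 or more times as large (0 found) changed no call or direction. Neither did leaving out each inert guide, tried only on the relative sizes of the 4 genes. Leaving out the largest tumour, tried only on the burden pairs, changed none either. The 10-read minimum, which among tumours of at least 500 cells takes out only some of KPTC mouse 1, changed 2 calls, both of shares given below. No paired analysis was possible because replicate numbers were given in the order of mouse identifiers and pair no mice.

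Male mice only (4 against 4, smallest p 0.029) brought the Rb1 pairs to an adjusted p of 0.057, still without overlap: by number-matched size Ambra1 over Rb1 -2.33, Rb1 over Apc 2.19 and Rb1 over Rbm10 2.44, and by burden -2.61, 2.66 and 2.87. By size, Rb1 over Apc was then 1.05 and Rb1 over Rbm10 0.67, Rb1 size 0.94 and Apc size -0.11, and the numbers were -1.39 for Ambra1, 0.20 for Rb1 and -1.19 for Rbm10. These 6 pair results kept their call under every other setting.

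KPTC mice 1 and 2, written with fewer digits than mice 3 and 4, were also tested apart. Mice 1 and 2 gave sizes of -0.18 (Ambra1), 0.77 (Rb1) and -0.19 (Apc), numbers of -0.997 (Ambra1), 0.063 (Rb1) and -0.90 (Rbm10), size pairs of 0.96 (Rb1 over Apc) and 0.69 (Rb1 over Rbm10), inert values of 0.725 (mean), 1.54 (95th percentile), 1.62 (99th) and 0.47 (SD), and shares at 5000 cells of 8.95 (Rb1) and -0.024 (Apc) percentage points. Mice 3 and 4 gave an Rb1 size of 1.19, numbers of -1.08, 0.41 and -0.98, size pairs of 0.92 and 0.84, inert values of 0.77, 1.58, 2.26 and 0.49, and an inert share of 13.6 points. None of these passed.

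The minimum size set the direction for Ambra1. Its size difference was -0.25 at 200 cells and 0.77, 0.86 and 1.09, all past the threshold, at 1000, 2000 and 5000 cells. At 200 cells Apc size was -0.080, Rbm10 size -0.14, Rb1 number 0.10, Ambra1 over Rb1 by size -1.12 (now called), and inert mean 0.47, 95th percentile 1.04 and SD 0.33, no longer called. At 1000 cells the numbers were -1.77 (Ambra1), -0.018 (Rb1) and -1.34 (Rbm10), Rb1 over Apc 0.91, Rb1 over Rbm10 0.80 and the Ambra1 median ratio 0.088. At 2000 cells Apc number was -0.655 and inert median 0.61, both called, and Rb1 over Apc 0.89, inert 95th percentile 1.22, 99th 1.56 and SD 0.365 were not. At 5000 cells Rb1 number was 0.11, Rbm10 number -0.59, inert mean 0.63, 95th percentile 1.01, 99th 1.69 and SD 0.28, none called, and the Ambra1 median ratio 0.44.

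The geometric mean gave -0.18 (Ambra1), -0.13 (Apc) and Rb1 over Rbm10 0.31. The 95th percentile gave 0.97 (Rb1), -0.099 (Apc), -0.14 (Rbm10), Ambra1 over Rb1 -0.95 (called) and Rb1 over Rbm10 1.11. Number-matched sizes gave -0.62 (Ambra1), -0.23 (Apc), -0.70 (Rbm10) and Ambra1 over Rb1 -2.26 (called). Leaving out shared barcodes, which 5020 of the tumours carry, gave Rb1 over Apc 0.66 and an Rbm10 share of -3.56 points. Pairs without Rb1 past the threshold by number-matched size were 0, but 1 without shared barcodes (Ambra1 over Apc) or without mice under 200 inert tumours (Apc over Rbm10) and 2 at 200 cells (both of these), and by size 1 at 5000 cells (Ambra1 over Rbm10).

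The percent of a gene's own tumours of at least 5000 cells and the percent of all tumour cells were set against these settings after seeing the data. Ambra1's share of cells was lost as a call at 200 cells, 10 reads, without shared barcodes and with few-tumour mice left out (-7.73, -12.1, -9.99 and -10.8 points). Inert guides' share of cells was -9.54 points, called, at 200 cells and 0.21 at 5000. Apc's own share was called at 10 reads (13.7) and without shared barcodes (10.9). Ambra1's own share was -3.72 points with KPTC mice 1 and 2 only and -1.47 without few-tumour mice. Among male mice, no called share of these 2 kinds kept its call. Rb1's share of cells lost its call under 3 of 24 settings in all (exact permutation, highest adjusted p = 0.14). Ambra1's share of all tumours of at least 5000 cells, a different measure, kept its call under all 20 settings tried (exact permutation, highest adjusted p = 0.048). The percent of inert cells in the largest 1% was 18.4 points, called, at 200 cells and -3.03 at 5000. Skewness was -0.25, -0.32 and -0.089 at 1000, 2000 and 5000 cells, -0.38 among male mice and -0.11 with KPTC mice 1 and 2 only.

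With each mouse left out, the changed results ranged as follows. Inert mean ran from 0.63 to 0.84, 95th percentile from 1.29 to 1.73, 99th from 1.57 to 2.07 and SD from 0.40 to 0.53, all 4 losing their call without KPTC mouse 3 and the 99th also without mouse 4. Size pairs ran from 0.82 to 1.07 (Rb1 over Apc) and 0.62 to 0.86 (Rb1 over Rbm10), and number-matched pairs without Rb1 from 0 to 1. Numbers ran from -1.16 to -0.86 (Ambra1), 0.17 to 0.33 (Rb1), -1.03 to -0.82 (Rbm10) and -0.40 to -0.25 (Apc). Sizes ran from 0.088 to 0.71 (Ambra1) and -0.066 to 0.22 (Apc), and the Apc share from -0.083 to 0.97 points. Inert skewness ran from -0.10 to 0.24, the largest 1% from 6.91 to 13.2 points, Ambra1's share of cells from -15.2 to -7.10 and its own share at 5000 cells from -2.15 to 5.45. Percentile ratios ran from 0.30 to 0.41 (Rb1, 60th), 0.35 to 0.57 (Rb1, 70th), -0.16 to 0.29 (Ambra1, 95th), 0.55 to 0.98 (Ambra1, 99th) and 1.34 to 1.77 (Rb1, 99th). Guides ran from 0.95 to 1.42 (Rb1#1), 0.50 to 1.17 (Rb1#2), -0.22 to 0.40 (Ambra1#2), -0.039 to 0.43 (Ambra1#3) and -0.21 to 0.15 (Rbm10#2). Rbm10 number lost its call without KPTC mouse 3. Depth limits KPTC mouse 1 most, at 3.80 reads for 500 cells.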
